A study of Mus musculus with 2 samples.

Results

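Neuropeptide receptor genes were examined for binding of Suz12 in differentiating mouse embryonic stem cells. The set holds 40 of the 21631 protein-coding genes placed on the 20 chromosomes with peaks, in 16 groups that share a peptide ligand or ligand family. The genes are a given list, chosen with earlier results of these data known, so their share with a peak is a description of the list. A gene was said to have a peak when a deposited Suz12 peak overlapped the gene body or lay within 2.5 kb of it. The data are a list of 3373 peaks from 1 chromatin immunoprecipitation library (ChIP-seq) made with a Suz12 antibody from E14-WT cells, a wild-type mouse embryonic stem cell line grown in serum. Differentiation had been induced for 72 h by retinoic acid (the all-trans form, at 1 µM) after withdrawal of LIF, which otherwise maintains the stem cell state. The other library of the series, from Suz12-KO cells (Suz12 -/-) at 0 h, was not analysed here, and it differs from the wild-type library in genotype and in time together. With 1 library there is no replicate error and no test between conditions, so counts carry exact (Clopper-Pearson) 95% intervals that cover counting error only.

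Neuropeptide receptors are G protein-coupled receptors that read peptides released by neurons and endocrine cells, and they tune pain, appetite, stress, sleep, social behaviour and hormone release. They act through Gi/o proteins, which lower cyclic AMP, through Gs proteins, which raise it, or through Gq proteins, which release calcium. In embryonic stem cells most of them are genes of later cell types. Suz12 is a subunit of Polycomb Repressive Complex 2 (PRC2). This enzyme methylates histone H3 (H3K27me3) and in these cells is typically found at CpG islands, stretches rich in the CG dinucleotide, at genes that are silent or poised.

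Suz12 peaks lay at 20 of the 40 receptor genes (50.0%, interval 33.8 to 66.2), against 13.1% of all protein-coding genes. The list does not hold every peptide receptor gene. The 5 relatives Npy4r, Npy6r, Mc2r, Avpr2 and Trhr2 belong to the same ligand groups but not to the 40, and 0 of 5 had a peak. A wider list of 42 other peptide receptor genes, these 5 included, had a peak at 12 (28.6%, 15.7 to 44.6), and together with the 40 this makes 32 of 82 (39.0%, 28.4 to 50.4). Among the 40, the peaks were at the corticotropin-releasing hormone (CRH) receptor genes Crhr1 and Crhr2, at all 3 galanin receptor genes, at both neurotensin receptor genes, at 4 of 5 somatostatin receptor genes, at Oxtr and Avpr1a, and at Npbwr1, Hcrtr1, Oprd1, Prokr2, Npy5r, Tacr1 and Mc1r. None of the 40 had a peak in the cholecystokinin, neuromedin U, melanin-concentrating hormone (MCH) and thyrotropin-releasing hormone (TRH) groups. By group, 12 of 16 had a peak at 1 member or more, and 11 when the peak had to overlap the gene body. Peaks covered or lay near all listed members of 4 groups (galanin, neurotensin, CRH and the single neuropeptide B/W receptor gene), while 8 groups were split between members with and without a peak. Each gene with a peak had 1 peak only, so the 20 genes rest on 20 peaks.

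The bases before the start of 7 receptor genes show how unlike these promoters can be, here within the opioid receptor group. They are the 250 bases before the annotated start, or the outermost of several, 5′ to 3′ on the gene's own strand. They come from RefSeq on GRCm38.p6, with every CG dinucleotide in capitals. The opioid group is shown first because a single member of it, Oprd1, had a peak. The other 4 are members of other groups whose printed bases lay wholly under a peak.
Oprd1, chr4:132144487-132144736, minus strand: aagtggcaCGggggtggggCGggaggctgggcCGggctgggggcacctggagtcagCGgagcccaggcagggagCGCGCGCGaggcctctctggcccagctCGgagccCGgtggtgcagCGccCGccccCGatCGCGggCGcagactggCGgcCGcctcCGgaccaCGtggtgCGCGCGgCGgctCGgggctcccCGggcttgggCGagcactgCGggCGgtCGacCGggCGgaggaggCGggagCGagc
Oprm1, chr10:6758343-6758592, plus strand: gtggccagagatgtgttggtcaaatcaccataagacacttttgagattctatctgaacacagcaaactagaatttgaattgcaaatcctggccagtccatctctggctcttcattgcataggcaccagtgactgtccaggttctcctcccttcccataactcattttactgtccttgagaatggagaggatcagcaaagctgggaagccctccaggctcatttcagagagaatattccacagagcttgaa
Oprl1, chr2:181714766-181715015, plus strand: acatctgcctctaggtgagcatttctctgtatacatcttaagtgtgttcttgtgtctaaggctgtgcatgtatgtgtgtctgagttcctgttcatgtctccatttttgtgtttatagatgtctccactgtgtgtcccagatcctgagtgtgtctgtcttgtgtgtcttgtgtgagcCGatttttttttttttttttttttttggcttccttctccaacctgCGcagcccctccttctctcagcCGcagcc
Sstr4, chr2:148395127-148395376, plus strand: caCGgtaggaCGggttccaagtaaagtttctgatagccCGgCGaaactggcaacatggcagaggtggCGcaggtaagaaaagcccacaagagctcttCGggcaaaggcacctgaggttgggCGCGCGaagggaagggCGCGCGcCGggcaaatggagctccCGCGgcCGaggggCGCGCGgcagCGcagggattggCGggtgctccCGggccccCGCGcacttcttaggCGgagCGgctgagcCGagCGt
Ntsr1, chr2:180499726-180499975, plus strand: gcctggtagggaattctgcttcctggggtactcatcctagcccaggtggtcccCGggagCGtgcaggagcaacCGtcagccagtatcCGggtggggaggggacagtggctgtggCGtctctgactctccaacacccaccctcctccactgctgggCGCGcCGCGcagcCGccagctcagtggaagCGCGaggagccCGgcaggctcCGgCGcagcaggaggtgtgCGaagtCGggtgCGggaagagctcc
Avpr1a, chr10:122448249-122448498, plus strand: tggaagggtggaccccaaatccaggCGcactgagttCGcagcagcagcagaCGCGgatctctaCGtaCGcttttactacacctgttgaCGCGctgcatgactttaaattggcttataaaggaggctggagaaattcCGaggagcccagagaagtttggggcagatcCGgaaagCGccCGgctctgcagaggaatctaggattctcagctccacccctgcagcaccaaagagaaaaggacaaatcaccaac
Npy5r, chr8:66688095-66688344, minus strand: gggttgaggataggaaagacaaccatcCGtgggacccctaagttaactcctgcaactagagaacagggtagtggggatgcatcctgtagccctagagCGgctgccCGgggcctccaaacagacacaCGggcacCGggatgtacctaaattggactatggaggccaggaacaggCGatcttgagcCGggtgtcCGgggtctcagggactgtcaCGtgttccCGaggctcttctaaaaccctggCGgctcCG

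The printed bases of Oprd1 hold 34 CG dinucleotides and lay wholly under a Suz12 peak. Those of its relatives Oprm1 and Oprl1, with no peak, hold 0 and 3. Both genes have 3 annotated starts, and only the outermost is printed. The 300-base windows of the other starts hold 4 and 5 CG dinucleotides at Oprm1 and 2 each at Oprl1, with no peak over them. Oprk1 had no matched window. Sstr4 holds 28, Ntsr1 18, Avpr1a 12 and Npy5r 12, and all 250 bases of each were covered. A dense run of CG was therefore not shared by every covered promoter, since Avpr1a and Npy5r had far fewer than Oprd1. Other split groups varied in the 300-base window of the outermost start. Hcrtr1, with a peak, held 27 and Hcrtr2 10, and Sstr2 and Sstr4 held 27 and 35 against 10 at Sstr3. In contrast, Prokr2 with a peak held 12 and Prokr1 without one 13. Tacr1 with a peak held 7, beside 6 at Tacr2 and 8 at Tacr3. Npy5r held 15, beside 14 at Npy2r and 10 at Npy1r.

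The authors' score ranks peaks within the list, and its scale is not stated there. It ran from 150.3 to 3233 over all peaks with a median of 572, and 325 peaks share the value 3100, so values near the top carry little order. At the receptor genes the score ran from 180.2 at Sstr5 to 3100 at Galr2 and Crhr1, with a median of 661, beside 663 for the best peak of all protein-coding genes with a peak. A score of 3100 or more was reached by 2 of the 20 receptor genes, beside 13.0% of all genes with a peak. Of the 20 peaks, 13 scored at or above the median of the list and 7 below it. The median score of the receptor genes was thus close to that of all marked genes, and single scores were spread over nearly the whole range.

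**Figure D1:**
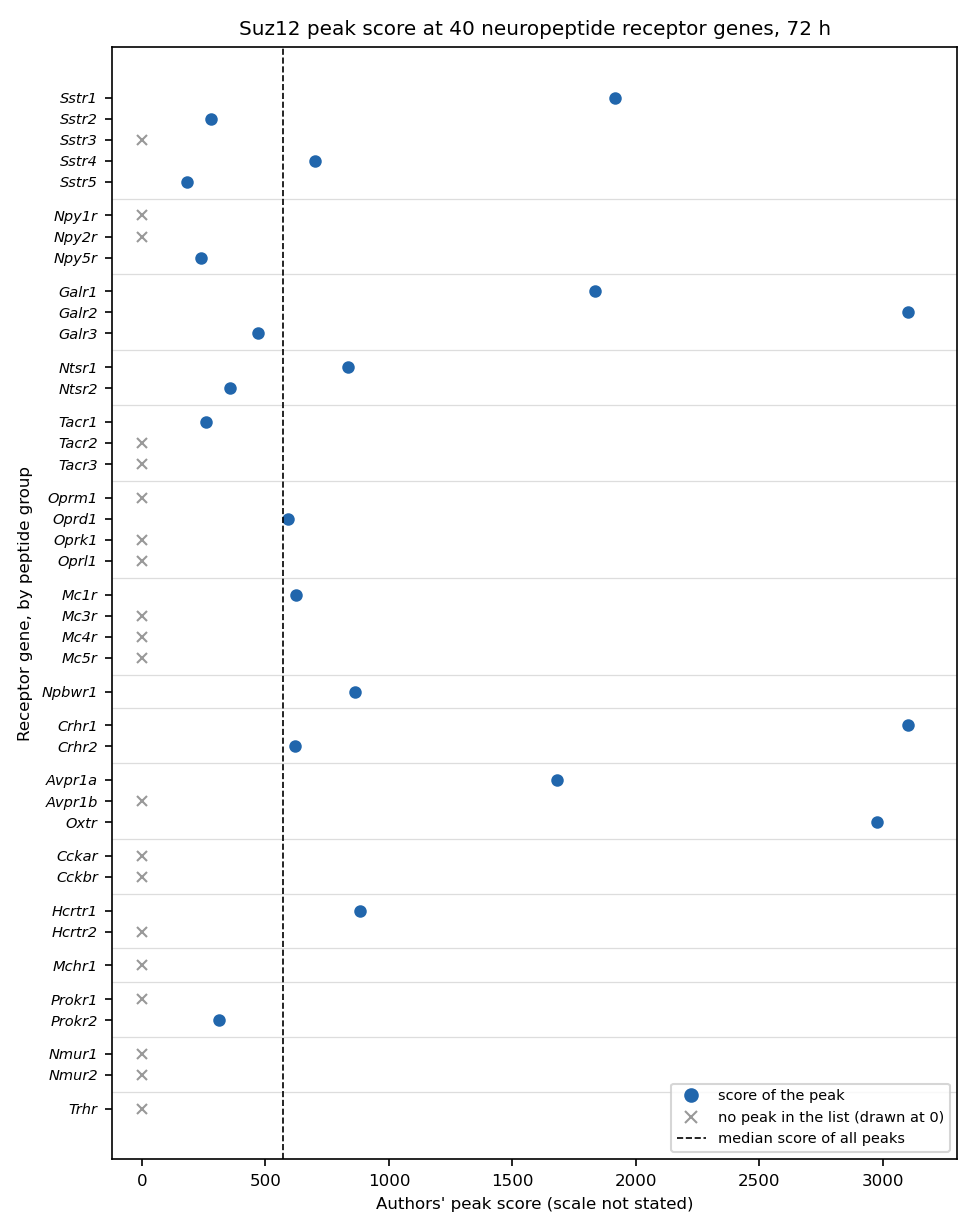
Each row is 1 of the 40 receptor genes, ordered by peptide group, and the horizontal axis is the authors' peak score, whose scale is not stated. Filled points are genes with a peak, crosses drawn at 0 are genes without one, and the dashed line is the median score of all 3373 peaks (572). Galr2, Crhr1 and Oxtr stand at the right end, and 7 of the 20 points lie left of the line.

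Among the stress and social peptide receptor genes, Crhr1 and Oxtr held some of the highest scores of the set. Crhr1, the main receptor for CRH in the pituitary, had a peak of 3330 bp on chromosome 11 from 104131654 to 104134983 with score 3100. It lay inside the outer bounds of the gene (104130463 to 104175523) and covered the annotated start, from 1127 bp upstream of it to 2202 bp downstream. Crhr2, which binds the urocortins, also had a peak, on chromosome 6 from 55116408 to 55118503 with score 619, but this lay inside the gene, 14.5 kb from its annotated start. It was the only one of the 20 without a gene end within 2.5 kb. Both CRH receptor genes were thus marked, one over its start and the other away from it.

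Oxtr, the oxytocin receptor gene, had a peak of 2899 bp on chromosome 6 from 112488448 to 112491346 with score 2974, reaching 1521 bp upstream and 1377 bp downstream of its start. Avpr1a, the vasopressin receptor gene of brain and blood vessels, had a peak of 2340 bp on chromosome 10 from 122447744 to 122450083 with score 1680. Avpr1b, the vasopressin receptor gene of the pituitary corticotroph, had none, and the nearest peak lay 350 kb away. Avpr2, the vasopressin receptor gene of the kidney, which is not among the 40, had none either. Of the 4 genes of this family 2 were thus marked.

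All galanin receptor genes had a peak. Galr2, a receptor that signals mainly through Gq, had the widest peak of the set, 3422 bp on chromosome 11 from 116280754 to 116284175 with score 3100, and it covered 83.1% of this short gene. Galr1, coupled to Gi/o, had a peak of 2626 bp on chromosome 18 from 82405293 to 82407918 with score 1834, which covered one gene end. Galr3 had a peak of 1517 bp on chromosome 15 from 79042358 to 79043874 with score 471. That peak also reached an end of the neighbouring gene Gcat, an enzyme gene of threonine breakdown, so it cannot be given to Galr3 alone. The galanin scores thus ran from below the median of the list to its common top value.

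Somatostatin receptors inhibit hormone release and neuronal firing, and 4 of their 5 genes were marked at very different scores. Sstr1 had a peak of 3022 bp on chromosome 12 from 58211071 to 58214092 with score 1915, covering 57.9% of the gene. Sstr4 had a peak of 1580 bp on chromosome 2 from 148394781 to 148396360 with score 699, covering 70.9% of the gene. These were the higher-scoring pair. Sstr2 scored 279.6 on chromosome 11 from 113618386 to 113620723, inside the outer bounds of the long zinc transporter gene Slc39a11, whose nearer end lay 29477 bp from the peak. Sstr5 had the lowest score and the narrowest peak of the 20, 180.2 and 1003 bp, on chromosome 17 from 25496418 to 25497420. Sstr3 had none, and the nearest peak was 126 kb away. Another Suz12 peak lay 9.67 kb from that of Sstr4, and this was the only one of the 20 with a further peak within 10 kb.

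Both neurotensin receptor genes were marked. Ntsr1, the high-affinity receptor gene, had a peak of 2189 bp on chromosome 2 from 180499057 to 180501245 with score 833. Ntsr2 had a peak of 1199 bp on chromosome 12 from 16653275 to 16654473 with score 358, which also lay over an end of Lpin1, a lipid phosphatase gene. Npbwr1, the mouse receptor for neuropeptides B and W, had a peak of 1829 bp on chromosome 1 from 5915968 to 5917796 with score 864, covering 38.8% of the gene.

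The orexin, prokineticin, opioid, tachykinin and neuropeptide Y groups each had 1 marked gene. Hcrtr1, an orexin receptor gene of the arousal system, had a peak of 1870 bp on chromosome 4 from 130138357 to 130140226 with score 883, over 2 of its 3 annotated starts. Hcrtr2, its partner, had none within 1.33 Mb. Oprd1, the delta opioid receptor gene, had a peak of 1930 bp on chromosome 4 from 132143545 to 132145474 with score 590.3. The mu receptor gene Oprm1, the kappa receptor gene Oprk1 and the nociceptin receptor gene Oprl1 had none. The nearest peaks lay 352 kb from Oprm1, 309834 bp from Oprk1 and 42.0 kb from Oprl1.

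The remaining peaks of these groups scored low. Prokr2, needed for olfactory bulb formation and for the migration of gonadotropin-releasing neurons, had a peak of 1372 bp on chromosome 2 from 132384249 to 132385620 with score 312. Tacr1, the substance P receptor gene, had a peak of 1511 bp on chromosome 6 from 82402306 to 82403816 with score 257. Npy5r, a feeding receptor gene, had a peak of 1030 bp on chromosome 8 from 66687316 to 66688345 with score 240.2. All 3 lay over an annotated start and below the median score of the list.

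Npy5r and Npy1r stand head to head, with their starts 9.33 kb apart, and the peak lay on the Npy5r side. The distance from the peak to Npy1r was 8804 bp, which made Npy1r the nearest gene outside the 2.5 kb limit. The nearest case inside the limit without overlap was Mc1r, the pigment cell melanocortin receptor gene. Its peak, chromosome 8 from 123411061 to 123413359 with score 623, began 317 bp beyond the gene and 3.98 kb from its start. The same peak lay over the promoter window of Tubb3, a neuronal tubulin gene, so the melanocortin group has no peak that overlaps a member. Mc3r and Mc4r, which control energy balance, and Mc5r of exocrine glands had none within 205, 228 and 402 kb.

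Where no peak was listed, peaks were usually far off. Over the 20 unmarked receptor genes the nearest peak lay between 8.80 kb (Npy1r) and 2.74 Mb (Tacr3), with a median of 318 kb, beside 241 kb for all unmarked protein-coding genes. It was more than 100 kb away for 16 of them. Cckbr, the brain cholecystokinin receptor gene, and Oprl1 were the other 2 within 50 kb, at 44.9 and 42.0 kb, and Nmur1 lay at 81.8 kb. The others were Tacr2 at 117 kb, Prokr1 at 139 kb, Npy2r at 326 kb, Nmur2 at 416 kb, Mchr1 at 454 kb, Cckar at 484 kb and Trhr at 551 kb. The list gives no reads, so the depth is unknown, and an unmarked gene may hold signal below the authors' threshold.

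Receptors of each G protein class were among the marked genes. Peaks lay at 9 of 16 Gi/o-coupled receptor genes (56.2%, 29.9 to 80.2), at 8 of 18 Gq-coupled ones (44.4%, 21.5 to 69.2) and at 3 of 6 Gs-coupled ones (50.0%, 11.8 to 88.2). The intervals overlap throughout, and the share of all protein-coding genes was 13.1%. Of the 3 Gs-coupled genes, Mc1r counts only by the 2.5 kb limit. Its peak overlaps no part of the gene and lies over the promoter window of Tubb3. The highest scores came from 1 Gs-coupled receptor gene, Crhr1, and 2 Gq-coupled ones, Galr2 and Oxtr.

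Most of these peaks sat at gene ends and over starts. Of the 40 receptor genes, 19 had a peak within 2.5 kb of a gene end, against 11.7% of all protein-coding genes, and in 16 of them the peak covered the end itself. RefSeq promoter windows, from 250 bases before to 50 after an annotated start, were matched for 29 of the 40. A peak overlapped the window of 13 of these 29, against 8.74% of all genes with a window, and all 13 peaks covered a start. They reached between 169 and 1521 bp upstream of it (median 755) and between 778 and 3236 bp downstream (median 1269). An overlap of at least 1 base counted, here and wherever a window is said to lie under a peak. The whole window lay under the peak in 9 of the 13. Of the 11 genes with no matched window, 5 had a peak (Sstr1, Sstr5, Galr1, Galr3 and Npbwr1), each over one end of the gene, but which end is the start was not read here.

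**Figure D2:**
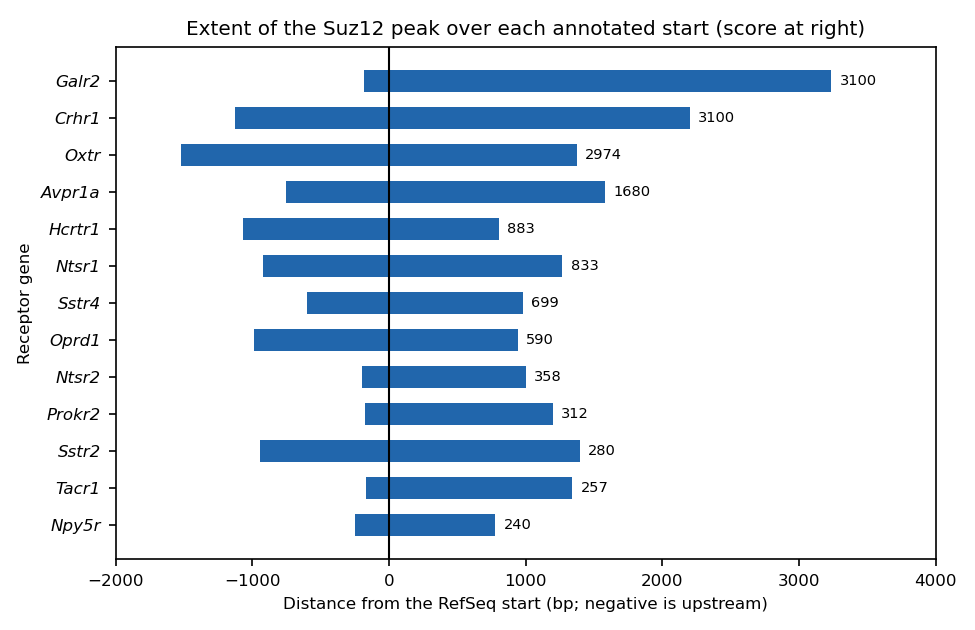
Bars show the extent of the Suz12 peak around the annotated start of each of the 13 receptor genes whose start it covered, in bp with upstream negative, ordered by score, which stands at the right of each bar. The Galr2 bar runs 3236 bp downstream, while the Npy5r bar at the bottom ends at 778 bp.

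The peaks were about as wide as elsewhere, and 19 of the 20 had no other peak within 10 kb. The narrowest measured 1003 bp, the widest 3422 bp and the median 2013 bp, beside 1981 bp for the best peak of all genes with one. Galr2, Crhr1 and Sstr1 had peaks wider than 3 kb and none of the 20 reached 5 kb. The next peak on the chromosome was a median of 224.5 kb away. Score and width went together over the 20 peaks (Spearman's rho 0.85), as over all 3373 peaks (0.89), and both values come from the same read pile-up. Marked receptor genes were short, with a median outer length of 7772 bp, beside 11420.5 bp for the unmarked ones and 17329 bp for all protein-coding genes.

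The title of the series concerns PRC2 at CpG islands, so CG dinucleotides were counted in the promoter windows. For genes with several windows the outermost start was taken. The 13 windows under a peak held 4 to 43 CG dinucleotides (median 20), and the 16 without a peak held 3 to 15 (median 9), so the ranges overlap at the low end only. All genes under a peak had a median of 22 and all others a median of 12. The receptor windows as a whole held fewer CG dinucleotides than those of all genes, with a median of 10 against 14 for all genes, and 24.1% of them held 20 or more against 36.5%.

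Every receptor window with 20 or more CG dinucleotides lay under a peak. There were 7, namely Oprd1 with 43, Sstr4 with 35, Crhr1 with 31, Hcrtr1 and Sstr2 with 27 each, Ntsr1 with 23 and Oxtr with 20. Among all genes, 847 of 6308 such windows (13.4%) lay under a peak. Below 20, 6 of 22 receptor windows were overlapped by a peak, beside 5.31% of all genes' windows. Of these, Galr2, Ntsr2, Prokr2 and Tacr1 were covered only in part (235, 245, 223 and 219 of 300 bases), and Avpr1a and Npy5r wholly. The limit of 20 was chosen after the values were seen. By the usual CpG island criteria applied to the window (G plus C of at least 50% and an observed over expected CpG of at least 0.6), 7 of 8 receptor windows lay under a peak, against 12.4% of all such windows, and the exception was Cckbr, with 15 CG dinucleotides and a ratio of 0.62.

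CG-poor windows under a peak were the counterpart. Galr2, with a score of 3100, had 4 CG dinucleotides in its window and a G plus C content of 45.7%, the lowest of the 29. Its peak began 185 bp before the start and ran through the gene, and the CG content of that downstream part was not read here. This start lies 833 bp inside the outer gene end on its upstream side, which the peak did not reach. Ntsr2 held 5 and Tacr1 7, with peaks that likewise began less than 200 bp before the start (195 and 169 bp) and extended 1003 and 1341 bp into the gene. The Tacr1 start lies 472 bp inside the outer gene end, which its peak did not reach either. The bases at the outer ends of Galr2 and Tacr1 were not read here. Prokr2 with 12, Avpr1a with 13 and Npy5r with 15 lay in the range that the unmarked windows also occupied.

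**Figure D3:**
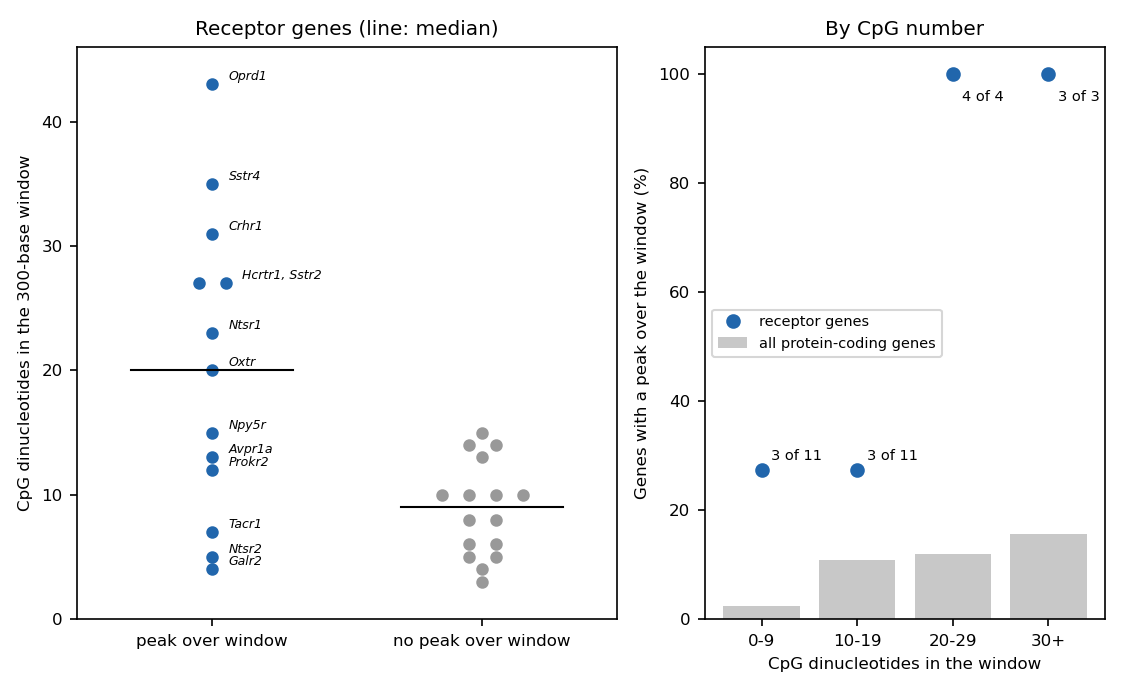
Left, the number of CG dinucleotides in the 300-base promoter window of 29 receptor genes, split by whether a Suz12 peak overlaps the window, with a line at each median (20 and 9). Right, the percentage of genes with a peak over the window in 4 ranges of CG number, with grey bars for all protein-coding genes and points for receptor genes; 4 of 4 and 3 of 3 receptor windows are covered in the upper ranges, where the bars stand at 11.9 and 15.6%.

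The genes for the peptides themselves were not always marked together with those of their receptors. Of 34 precursor genes, 13 had a peak (38.2%, 22.2 to 56.4), an interval that overlaps that of the receptors. The highest score was 3100 at Ucn, which encodes urocortin, a ligand of both CRH receptors. Prok2, the ligand of Prokr2, followed with 1577, and Npy with 1382. Avp and Oxt, the neighbouring vasopressin and oxytocin genes, shared 1 peak of 2904 bp with score 1432. That peak overlapped the promoter window of Oxt and not that of Avp. In the CRH group, Ucn was the only 1 of 4 precursor genes with a peak, and Crh, Ucn2 and Ucn3 had none.

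Read by group, 8 of the 16 had a peak at a receptor and at a precursor gene, among them oxytocin and vasopressin, galanin (Gal, 248), orexin (Hcrt, 348), opioid (Penk, 898) and neuropeptide B/W (Npw, 199). Another 4 had peaks at receptors only, which were somatostatin, neurotensin, tachykinin and melanocortin. The melanocortin group counts only by the 2.5 kb limit, since its peak near Mc1r overlaps no member and lies over the promoter window of Tubb3. The genes Sst, Nts, Tac1 and Pomc had none. In 3 groups the precursor gene was marked and no receptor gene, namely cholecystokinin (Cck, 615), neuromedin U (Nmu, 248) and TRH (Trh, 281). The peaks of Cck and Hcrt did not overlap the promoter windows of these genes, and Penk and Npw had no matched window. MCH had a peak at neither. Groups held 1 to 5 receptor genes and 1 to 4 precursor genes, and 12 of the 16 had a peak at a receptor. By gene, the shares were 50.0% of receptors and 38.2% of precursors, beside 13.1% of all protein-coding genes. Whether 8 groups with both differs from the number that unrelated marking would give was not tested.

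Receptors for small transmitters were a further class to set beside them. Of 36 G protein-coupled receptor genes for monoamines and acetylcholine, 26 had a peak (72.2%, 54.8 to 85.8), led by Adra2a and Adrb1 at 3100, Adra2c at 3035 and Adra1d at 2610. That interval overlaps the 33.8 to 66.2 of the neuropeptide receptors, and the difference was not tested. Their promoter windows held more CG dinucleotides, with a median of 15 against 10, beside 14 for all genes. Of the 11 with 20 or more, 10 lay under a peak, beside 13.4% of such windows of all genes. Below 20, 7 of 16 did (43.8%), beside 27.3% for the neuropeptide receptors and 5.31% for all genes. Whether CG content relates to the differences between lists was not tested. At the other extreme, 2 of 1501 olfactory, vomeronasal and taste receptor genes had a peak (0.133%, 0.0161 to 0.48), and the median of their windows was 1 CG dinucleotide.

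**Figure D4:**
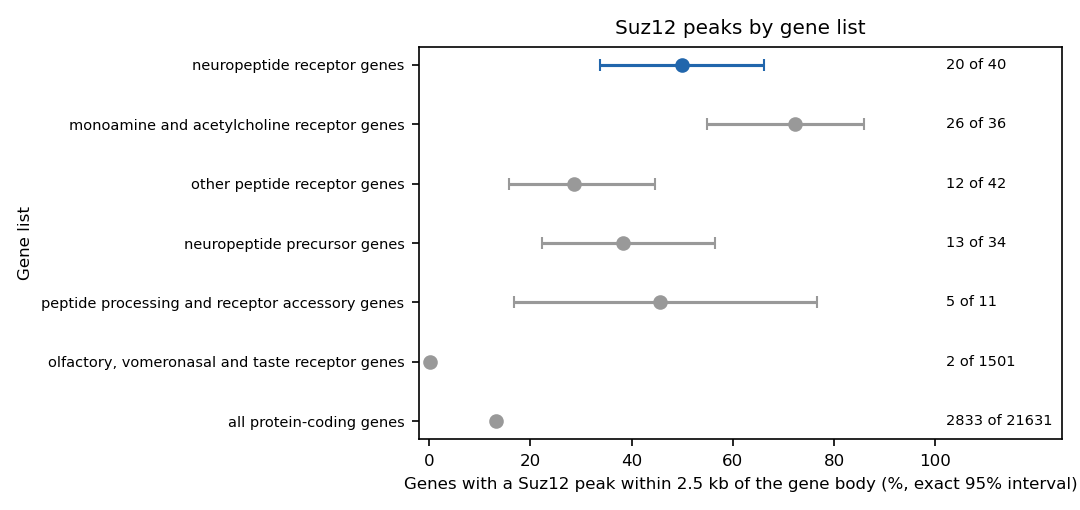
Points show the percentage of genes in each list with a Suz12 peak within 2.5 kb of the gene body and bars the exact 95% interval, with counts at the right. Neuropeptide receptor genes stand at 50.0%, between the monoamine and acetylcholine receptor genes (72.2%) and the other peptide receptor genes (28.6%).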

How the data were processed

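Suz12 binding was measured by ChIP-seq in 1 wild-type library at 72 h. Bowtie and MACS are the tools, and GRCm38 (mm10) the genome build, that the submitters' processing notes name for the authors' work. Their settings, control and pooling of libraries, if any, are not stated in these sources. The deposited file gives for each peak its start, end and a score, which is the authors' own value and served here for ranking and filtering. Depth is unknown.

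Peaks were placed on the outer bounds of protein-coding genes in a RefSeq table of GRCm38.p6, which has no exons or UTRs, and on RefSeq promoter windows of the same build (17274 genes, 29 of the 40 receptor genes). All 40 symbols matched. A peak counted for a gene when it overlapped the gene body or lay within 2.5 kb. The best peak has the highest score, then the greatest width. Promoter bases are printed only where the start lies within 30 bases of the outer gene end and no other gene overlaps them. Python 3.11.15, pandas 2.3.3 and scipy 1.17.1 were used, and the interval search was tested on simulated data. The members and lists were chosen with earlier results of these data known. All 40 members are named, and of each other list up to 4 genes with the highest scores, or those that bear on a receptor group. Alternatives were other distances, 2 score limits, and, added after seeing the data, leaving out shared peaks and taking the window with the most CG.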

Additional observations from a re-analysis of the deposited data

How the results depend on the processing

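Of 66 alternative values, 56 stayed within 1.5 times the main value and 10 moved. The 20 receptor genes with a peak became 19 when the peak had to overlap the gene body, 20 within 1 or 5 kb and 21 within 10 kb. They numbered 16 once scores under double the lowest were left out and also 16 without peaks shared with another protein-coding gene. Without peaks below the median score, 13 receptor genes had a peak, 12 at a gene end and 8 over the promoter window. The same limit left 7 precursor genes, 7 other peptide receptor genes, 1 processing and accessory gene, 17 monoamine and acetylcholine receptor genes and 0 olfactory, vomeronasal and taste receptor genes; fewer peaks enter by construction. The last list also had 0 at double the lowest score and 4 within 10 kb. The share of all protein-coding genes, such as 13.1% with a peak, is given here for the main settings only. Whether the excess of the receptor genes over all genes changes at the other settings was therefore not tested. No paired analysis was possible because a single library was analysed. Depth is unknown, so low-scoring peaks such as those at Sstr5 and Npy5r, and genes without one, are the least certain.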

Other observations

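Among the 12 of 42 other peptide receptor genes with a peak, the highest scores were at Rxfp3, a relaxin family receptor gene of the brain (2408), Ghsr, the ghrelin receptor gene (1910), Kiss1r, the kisspeptin receptor gene that controls puberty (1604), and Vipr1, a receptor gene for vasoactive intestinal peptide (1117). Of their promoter windows with 20 or more CG dinucleotides, 4 of 5 lay under a peak, and below that 4 of 27. For all genes these shares were 13.4% and 5.31%. The peak of Kiss1r did not overlap the promoter window of this gene.

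Among genes that cut peptide precursors or assist peptide receptors, 5 of 11 had a peak (45.5%, 16.7 to 76.6), beside 13.1% of all protein-coding genes. They were Pcsk1n, a convertase inhibitor gene (1216), Ramp2, an accessory gene of calcitonin-type receptors (484), the convertase gene Pcsk2 (465), Mrap2, an accessory gene of melanocortin receptors (454), and the convertase gene Pcsk1 (154), the last named beyond the rule of 4. No melanocortin receptor gene was itself overlapped by a peak. Of the processing and accessory genes' promoter windows with 20 or more CG dinucleotides, 1 of 3 lay under a peak. The share for all genes was 13.4%. The peaks of Pcsk1n and Pcsk2 did not overlap the promoter windows of these genes, and Ramp2 had no matched window.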
